A study of Rattus norvegicus with 12 samples.

Results

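The genes described here were 10 members of the Notch pathway in cultured rat oligodendrocyte precursor cells (OPCs): the receptors Notch1, Notch2 and Notch3, the ligands Dll1, Dll3 and Jag1, the DNA-binding factor Rbpj, and the transcriptional repressors Hes1, Hes5 and Hey1. They were taken from the table by symbol, with no threshold on measured values, by a choice made when earlier results of these data were known, and each of the 10 symbols had 1 row among the 30562 genes of the count table. Bulk RNA sequencing had been carried out on 12 libraries. 6 came from mild-hypo-OPCs, wild-type OPCs kept at a fraction of inspired oxygen (FiO2) of 5%, and 6 from standard OPCs, wild-type OPCs cultured without hypoxic preconditioning. The hypoxic exposure lasted 6 hours by the labels. The methods of the study state days in place of hours, and this difference could not be settled here. Both groups were prepared from the cerebral cortices of P1 or P2 Sprague-Dawley rats of wild-type genotype, by shake-off from mixed glial cultures, and were kept in medium with FGF-2 and PDGF-AA, mitogens that hold OPCs in the precursor state. The study names fewer biological replicates per group than there are libraries, and nothing states that the libraries of a group were separate cultures, so the p-values measure the spread between these libraries, which may be partly technical.

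Notch receptors are single-pass membrane proteins activated by ligands on neighbouring cells. Ligand binding permits cleavage by ADAM proteases and then by the gamma-secretase complex, which frees the intracellular domain. This domain enters the nucleus, binds Rbpj and recruits Mastermind-like coactivators, so that Rbpj changes from a repressor into an activator of Hes and Hey genes. In the oligodendrocyte lineage, Jag1-Notch1 signalling and its effector Hes5 are known as brakes on the step from precursor to myelin-forming cell. The comparison of mild-hypo-OPCs with standard OPCs asks whether the transcripts of this pathway differed after exposure to lowered oxygen.

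Hes1 and Hes5 are the members whose promoters carry the best-known Rbpj sites, and they are also the members with the fewest reads, so their start regions are shown before the values. A window from 250 bases before to 50 bases after the transcription start was taken from RefSeq (assembly GRCr8, which is not the build of the deposited counts, mRatBN7.2). A window was found for 9 of the 10 members, with 2 windows for Rbpj. Hey1 had no window, so its start region was not searched. The 6-letter Rbpj core TGGGAA was searched on both strands, and the capitals below mark it (TTCCCA where it lies on the opposite strand).
Hes1 (GRCr8, chr11:84212996-84213295, minus strand): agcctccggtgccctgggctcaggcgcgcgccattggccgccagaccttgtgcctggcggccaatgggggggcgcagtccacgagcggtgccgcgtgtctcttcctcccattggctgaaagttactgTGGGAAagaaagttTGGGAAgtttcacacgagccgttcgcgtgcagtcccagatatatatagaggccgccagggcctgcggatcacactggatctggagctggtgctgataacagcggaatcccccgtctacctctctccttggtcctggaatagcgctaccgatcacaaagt
Hes5 (GRCr8, chr5:170804327-170804626, plus strand): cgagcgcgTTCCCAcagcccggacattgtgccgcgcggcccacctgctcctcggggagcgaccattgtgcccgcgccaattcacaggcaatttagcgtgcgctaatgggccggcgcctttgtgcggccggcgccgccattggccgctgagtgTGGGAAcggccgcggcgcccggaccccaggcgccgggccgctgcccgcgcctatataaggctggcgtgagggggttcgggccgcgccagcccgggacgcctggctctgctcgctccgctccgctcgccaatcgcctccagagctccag
In the Hes1 window, the TGGGAA matches began 123 and 109 bases before the start and lay in the same orientation. In the Hes5 window, the cores began 242 and 98 bases before the start, in opposite orientations. The longer form GTGGGAA, which contains TGGGAA, occurred at 1 place in the Hes1 window, 2 in the Hes5 window and 1 in the Dll1 window, and in none of the other windows of the members. Of 33469 RefSeq promoter windows of the same length, 6.29% held GTGGGAA at least once and 0.236% held it at 2 or more places, while 25.7% held TGGGAA and 3.85% held it at 2 or more places. The short core also occurred at 2 places in the windows of Dll1 and in 1 of the Rbpj windows. Rbpj sites with other letters were not searched and are not marked, so the marked stretches need not be the known sites. These matches describe letters and are not evidence of binding in these cells.

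Total counts were 4111669 to 9022324 in the mild-hypo-OPC libraries and 1356079 to 2797513 in the standard OPC libraries. The ranges did not overlap, so depth and condition cannot be told apart. Levels are given as CPM (counts of a gene per 1e+06 counts that its library held in tested genes), divided by the trimmed-mean-of-M-values (TMM) composition factors, which ran from 1.08 to 1.23 for mild-hypo-OPCs and from 0.809 to 0.945 for standard OPCs. Genes were tested where raw CPM was above 10 in at least 1 library, which left 8938 genes and 7 of the 10 members. Fold changes are mild-hypo-OPCs over standard OPCs on the log2 scale, from the edgeR quasi-likelihood test with Benjamini-Hochberg adjustment over the 8938 genes. In bulk RNA, fewer cells expressing a gene and less of its RNA per cell cannot be told apart.

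None of the 7 tested members passed an adjusted p of 0.05. 0 members were called higher, beside 7% of all tested genes, and 0 were called lower, beside 17%, with 24% of tested genes called in either direction. At an unadjusted p under 0.05, edgeR called 0 of the 7, and its lowest unadjusted p, from the quasi-likelihood test fitted across all genes, was 0.0647 for Rbpj. limma-voom and DESeq2 also called 0 members at the adjusted threshold, with 0 and 1 members at an unadjusted p under 0.05. The libraries of the groups overlapped for all 10 members, whereas the groups separated completely for 2.94% of tested genes with mild-hypo-OPCs above and 5.4% with them below.

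**Figure D1:**
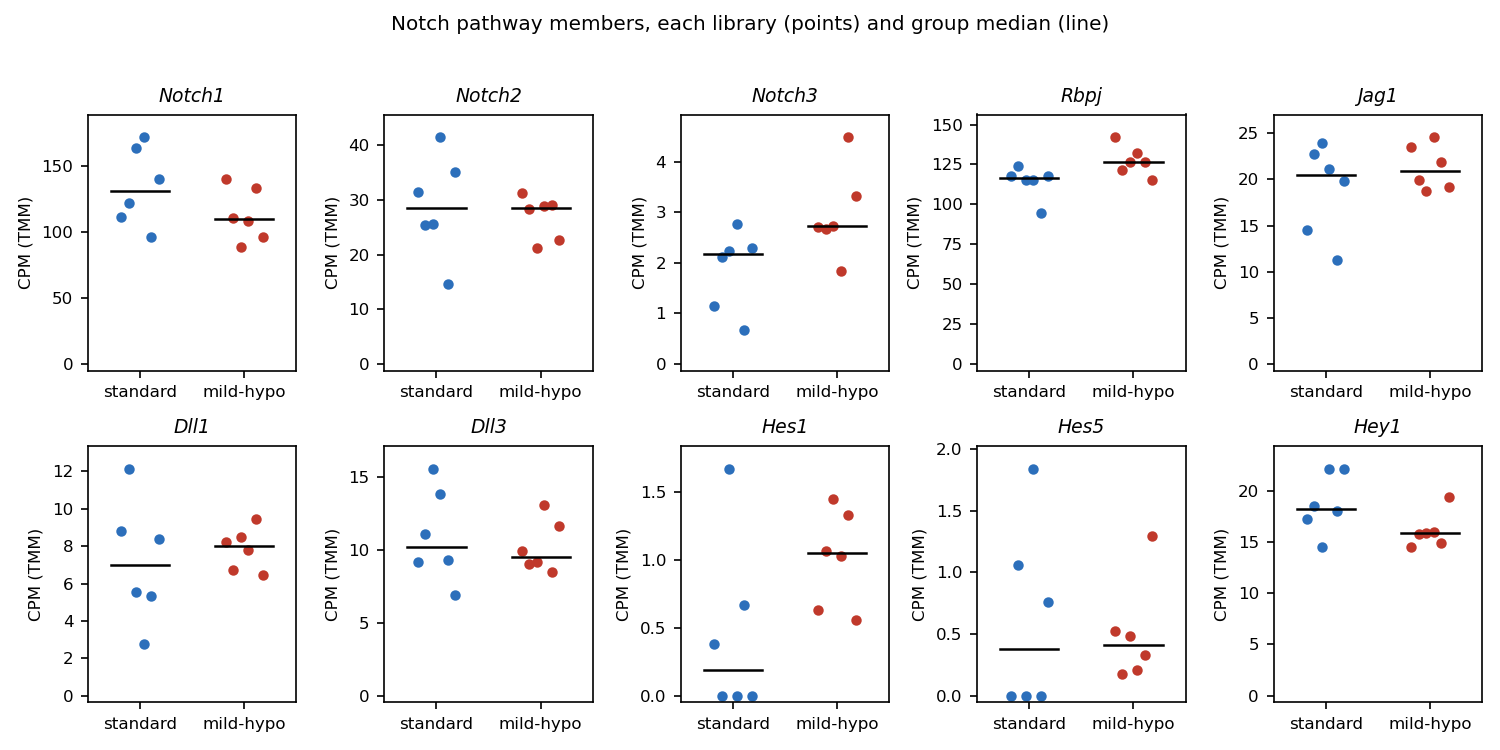
CPM on the TMM scale (vertical axis, linear and including 0 in each panel) of the 10 members in each library, with standard OPCs in blue, mild-hypo-OPCs in red, 6 points per group and a line at the group median. The points of the groups overlap in every panel, and 3 standard OPC libraries sit at 0 for Hes1 and for Hes5.

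Among the receptors, Notch1 (ENSRNOG00000019322), the main receptor described in OPCs, had CPM values in mild-hypo-OPCs of 140.6, 110.7, 88.93, 108.8, 133.2 and 96.05 in replicates 1 to 6. In standard OPCs its CPM values were 111.6, 122.5, 164.1, 172.1, 96.64 and 140.5. Standard OPC replicates 3 and 4 lay above every mild-hypo-OPC library, and 2 of 6 mild-hypo-OPC libraries lay above the standard OPC median, so the groups overlapped widely. Means were 113 ± 20.3 and 134.6 ± 29.7 CPM (SD, n = 6 each), and the log2 fold change was -0.24 (SE 0.136, 95% interval -0.52 to 0.05, edgeR adjusted p = 0.218). Of all tested genes, 26.1% had a lower fold change than Notch1. Notch2 (ENSRNOG00000018835), a receptor that is also used by glia and myeloid cells, had medians of 28.56 CPM in mild-hypo-OPCs (21.19 to 31.29) and 28.47 CPM in standard OPCs (14.66 to 41.41). Its standard OPC libraries spread on both sides of all the mild-hypo-OPC libraries. The log2 fold change of Notch2 was -0.08 (SE 0.165, 95% interval -0.42 to 0.27, edgeR adjusted p = 0.776).

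Notch3 (ENSRNOG00000004346), the receptor best known from mural cells of blood vessels, did not reach the filter and was not tested. Its reads numbered 26, 15, 17, 9, 27 and 18 in mild-hypo-OPC replicates 1 to 6. In standard OPCs there were 3, 4, 4, 3, 1 and 3 reads. All mild-hypo-OPC libraries had more reads, but they were also deeper, and on the CPM scale the groups overlapped (1.84 to 4.48 against 0.666 to 2.76). Pooled over libraries, 112 reads against 18 gave a rate ratio of 1.68 on the TMM scale (exact 95% interval 1.02 to 2.94), an interval that covers counting error only and not the spread between libraries. In the edgeR fit of all 17391 genes without the filter, the Notch3 log2 fold change was 0.77 (SE 0.386, adjusted p = 0.213). Mural marker genes were close to 0 in every library, with a summed level of 2.54 CPM (median, 1.61 to 2.84) in mild-hypo-OPCs and 1.53 CPM (1.06 to 4.60) in standard OPCs for 6 genes. Myh11 was the most abundant of them, and the mural genes Rgs5 and Abcc9 had no read in any library. The mural receptor gene Pdgfrb had 21 reads in the pooled mild-hypo-OPC libraries (2 to 6 in each) and 0 in each standard OPC library. The part of mural cells in the Notch3 values was not tested.

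To compare members without a scaling factor, 4 ratios of reads within a library were set against each other between the groups by a two-sided exact permutation test (n = 6 each, smallest possible p 0.002165). The log2 ratio of Notch1 to Notch3 reads, with 0.5 added to each count, was 5.246 ± 0.423 (SD) in mild-hypo-OPCs and 6.029 ± 0.386 in standard OPCs. The difference was -0.78 (exact permutation p = 0.01515, adjusted over the 4 ratios 0.06061), and the groups overlapped between 5.691 and 5.806. With 1 added in place of 0.5, the difference was -0.61, and after thinning to the smallest total it was -1, so the value depended on depth and on the added count. Jag1 to Dll1 differed by -0.01 (exact permutation p = 0.9848, adjusted 0.9848). Hes5 to Notch1 differed by -0.09 (exact permutation p = 0.881, adjusted 0.9848), with 0 reads of Hes5 in 3 of 6 standard OPC libraries, and after thinning by 0.26. With 1 added in place of 0.5, Hes5 to Notch1 differed by -0.50, so this value also depended on the added count. The fourth ratio, Hes5 to Hes1, could not be read, since every standard OPC library had 0 reads of one of these genes and its ratio was set by the added count.

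The ligands were present at low levels in both groups. Jag1 (ENSRNOG00000007443), which binds Notch1 and is also made by axons and astrocytes, had CPM values of 23.57, 19.89, 18.78, 24.58, 21.90 and 19.17 in mild-hypo-OPC replicates 1 to 6. In standard OPCs its CPM values were 14.53, 22.71, 23.91, 21.17, 11.33 and 19.85. Standard OPC replicates 1 and 5 were below every mild-hypo-OPC library and the others lay within their range. The log2 fold change of Jag1 was 0.19 (SE 0.152, 95% interval -0.13 to 0.51, edgeR adjusted p = 0.394). Dll1 (ENSRNOG00000059984), a Delta-type ligand that activates Notch on neighbouring cells, had a median of 8.01 CPM in mild-hypo-OPCs (6.45 to 9.46) and 6.98 CPM in standard OPCs (2.76 to 12.15), with a log2 fold change of 0.06 (SE 0.233, 95% interval -0.42 to 0.55, edgeR adjusted p = 0.872). Dll3 (ENSRNOG00000019338), a divergent Delta-type ligand that acts inside the cell and inhibits the pathway, had a median of 9.53 CPM (8.46 to 13.11) against 10.21 CPM (6.87 to 15.57), with a log2 fold change of -0.10 (SE 0.189, 95% interval -0.50 to 0.29, edgeR adjusted p = 0.733). For both Delta-type ligands the standard OPC range enclosed the mild-hypo-OPC range. The Dll1 interval was the widest among the tested members and leaves room for a difference of 0.55 on the log2 scale in the upward direction.

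Rbpj (ENSRNOG00000046327), the DNA-binding factor on which all 3 receptors converge, had CPM values of 142.1, 121.5, 126.5, 132.1, 126.4 and 115.0 in mild-hypo-OPC replicates 1 to 6. In standard OPCs its CPM values were 117.8, 124.1, 115.1, 115.0, 94.64 and 117.6. In mild-hypo-OPCs, 5 of 6 libraries lay above the standard OPC median of 116.3 CPM, and standard OPC replicate 5 was lower than all the other libraries. Means were 127.3 ± 9.24 and 114 ± 10.1 CPM (SD, n = 6 each). The log2 fold change was 0.16 (SE 0.0804, 95% interval -0.01 to 0.33, edgeR adjusted p = 0.166), with the narrowest interval among the tested members. As the member with the lowest p, Rbpj was compared with all other tested genes by the root mean square difference of their mean-centred log2 CPM over the 12 libraries. The most similar genes were Ptprs at 0.058, Clcn6 at 0.0611 and Slc39a10 at 0.0624, beside 0.136 for the deviation of Rbpj from its own mean.

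Hey1 (ENSRNOG00000062882), a Hes-related repressor induced by Notch, was the only one of the 3 repressors that reached the filter. Its CPM values were 14.50, 15.81, 15.89, 15.98, 14.93 and 19.36 in mild-hypo-OPC replicates 1 to 6, and 17.21, 18.48, 14.46, 22.09, 17.99 and 22.14 in standard OPCs. The mild-hypo-OPC libraries other than replicate 6 lay at 14.50 to 15.98, and the standard OPC libraries other than replicate 3 at 17.21 or above. Means were 16.1 ± 1.71 and 18.7 ± 2.97 CPM (SD, n = 6 each), with a log2 fold change of -0.20 (SE 0.13, 95% interval -0.47 to 0.07, edgeR adjusted p = 0.288). Per read of Rbpj in the same library, Hey1 had 0.102 to 0.168 reads in mild-hypo-OPCs (median 0.1235) and 0.126 to 0.192 in standard OPCs (median 0.1685), and Notch1 had 0.703 to 1.05 (median 0.873) and 0.948 to 1.5 (median 1.105). These Rbpj ratios were chosen after their values had been seen and are given without a test.

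Hes1 (ENSRNOG00000001720), a repressor that holds neural progenitors undifferentiated, had 6, 6, 9, 5, 8 and 3 reads in mild-hypo-OPC replicates 1 to 6. In standard OPCs it had 1, 0, 3, 0, 1 and 0 reads. Hes5 (ENSRNOG00000013850), the Notch effector known to repress myelin genes, had 5, 1, 3, 1, 2 and 7 reads in mild-hypo-OPCs and 0, 2, 0, 2, 0 and 1 reads in standard OPCs. Each gene thus had reads in all 6 mild-hypo-OPC libraries and in 3 of the 6 less deeply sequenced standard OPC libraries. A count of 0 allows up to 3 reads, equal to 1.15 to 2.76 CPM in the standard OPC libraries, whereas Hes1 in mild-hypo-OPCs stood at 0.553 to 1.445 CPM. A level like that of the mild-hypo-OPCs could therefore give no read in a standard OPC library at this depth. Pooled over libraries, Hes1 had 37 reads against 5, a rate ratio of 2 on the TMM scale (exact 95% interval 0.784 to 6.52, counting error only). By library totals alone, the Hes1 ratio was 2.66 (exact 95% interval 1.04 to 8.67), so whether its interval included 1 depended on the scaling. Hes5 had 19 reads against 5, a rate ratio of 1.03 (exact 95% interval 0.371 to 3.52). Without the filter, the edgeR log2 fold changes were 1.01 for Hes1 (SE 0.679, adjusted p = 0.37) and 0.05 for Hes5 (SE 0.771, adjusted p = 0.973).

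Compared per kilobase of gene span, introns included (RefSeq, GRCr8), Hey1 was the most abundant of the 3 repressors. Its median was 6.28 CPM per kb in mild-hypo-OPCs (5.75 to 7.67) and 7.23 in standard OPCs (5.73 to 8.77). Hes1 had medians of 0.433 (0.229 to 0.599) and 0.0792 (0 to 0.691) CPM per kb, and Hes5 had medians of 0.117 (0.0511 to 0.371) and 0.11 (0 to 0.529). The lowest Hey1 library was thus above the highest Hes1 or Hes5 library in both groups, while Hes1 and Hes5 overlapped. The spans were 2414 bases for Hes1, 3478 for Hes5 and 2523 for Hey1, which differ far less than the levels do.

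**Figure D2:**
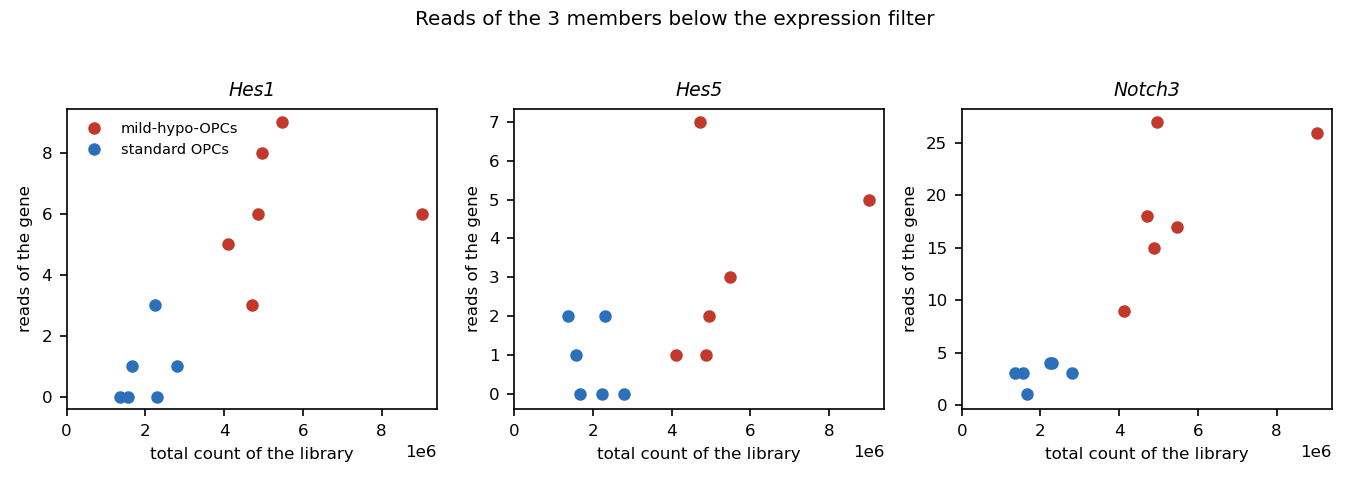
Reads of Hes1, Hes5 and Notch3 in each library (vertical axis) against the total count of that library (horizontal axis), with mild-hypo-OPCs in red and standard OPCs in blue. The standard OPC libraries, none deeper than 2797513 counts, hold at most 3, 2 and 4 reads of these genes.

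The scaling moved all 7 tested members together. Scaling by library size only shifted the median log2 fold change of all tested genes by 0.432. Under it Jag1, at 0.62 (edgeR adjusted p = 0.000796), and Rbpj, at 0.60 (edgeR adjusted p = 2.56e-05), were called higher, and Notch1, Notch2, Dll3 and Hey1 turned positive. Relative to the median of all genes under that scaling, Jag1 stood at 0.20, Rbpj at 0.17 and Notch1 at -0.22, close to their values with TMM factors. With upper-quartile scaling, which shifted the median by 0.068, Rbpj was called at 0.23 (edgeR adjusted p = 0.0485) and no other member was.

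**Figure D3:**
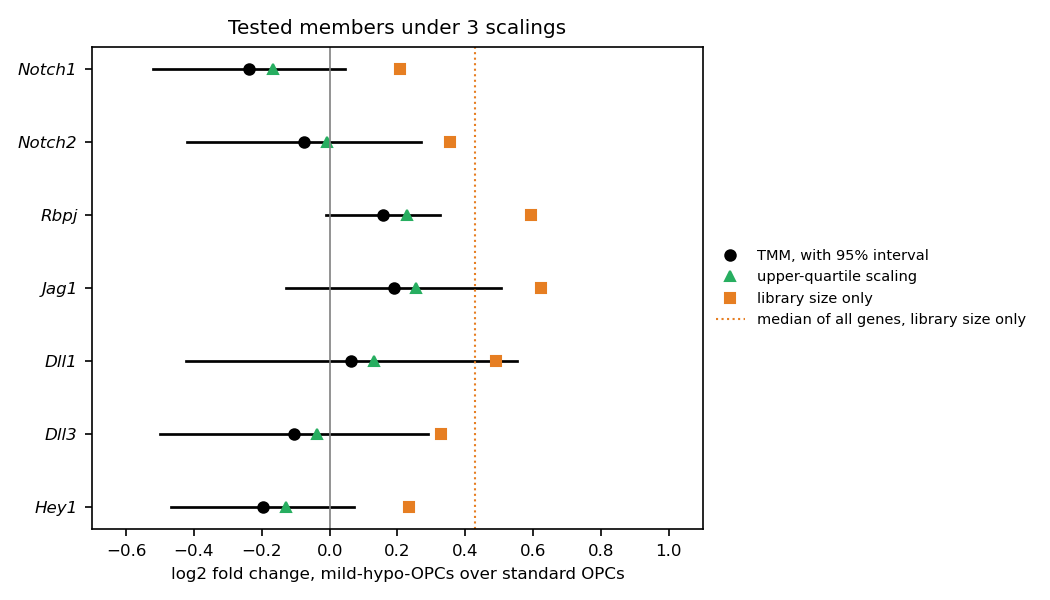
Log2 fold change of mild-hypo-OPCs over standard OPCs (horizontal axis) for the 7 tested members, with TMM factors (black circles, bars for the 95% interval), upper-quartile scaling (green triangles) and library size only (orange squares). Every bar crosses 0, and the squares lie to the right by about the shift of the median of all genes, drawn as a dotted line.

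The rest of the pathway was read from a list of 61 further genes grouped by role, all of them in the table, of which 42 were tested. 2 were called higher, beside 7% of all tested genes, and 5 lower, beside 17%, and their median log2 fold change was 0.06, beside -0.003 for all tested genes. These counts do not stand above the shares of all tested genes, and the counts by role are too small to be read against them. By role, 1 of 8 tested proteases and 1 of 5 negative regulators were higher. 1 of 1 tested Hes and Hey family genes, 2 of 7 coactivators, 1 of 11 corepressors and 1 of 5 glycosylation enzymes were lower. 0 of 2 other ligands and 0 of 3 ligand ubiquitin ligases were called, with 0 at an unadjusted p under 0.05 in edgeR. Across the 42 genes, 4 were higher and 5 lower at an unadjusted p under 0.05 in edgeR, of which Dtx1 passed the filter on low values only through mild-hypo-OPC libraries (highest raw CPM 13.1, against 8.22 in standard OPCs). The groups overlapped for each of the 7 called genes.

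**Figure D4:**
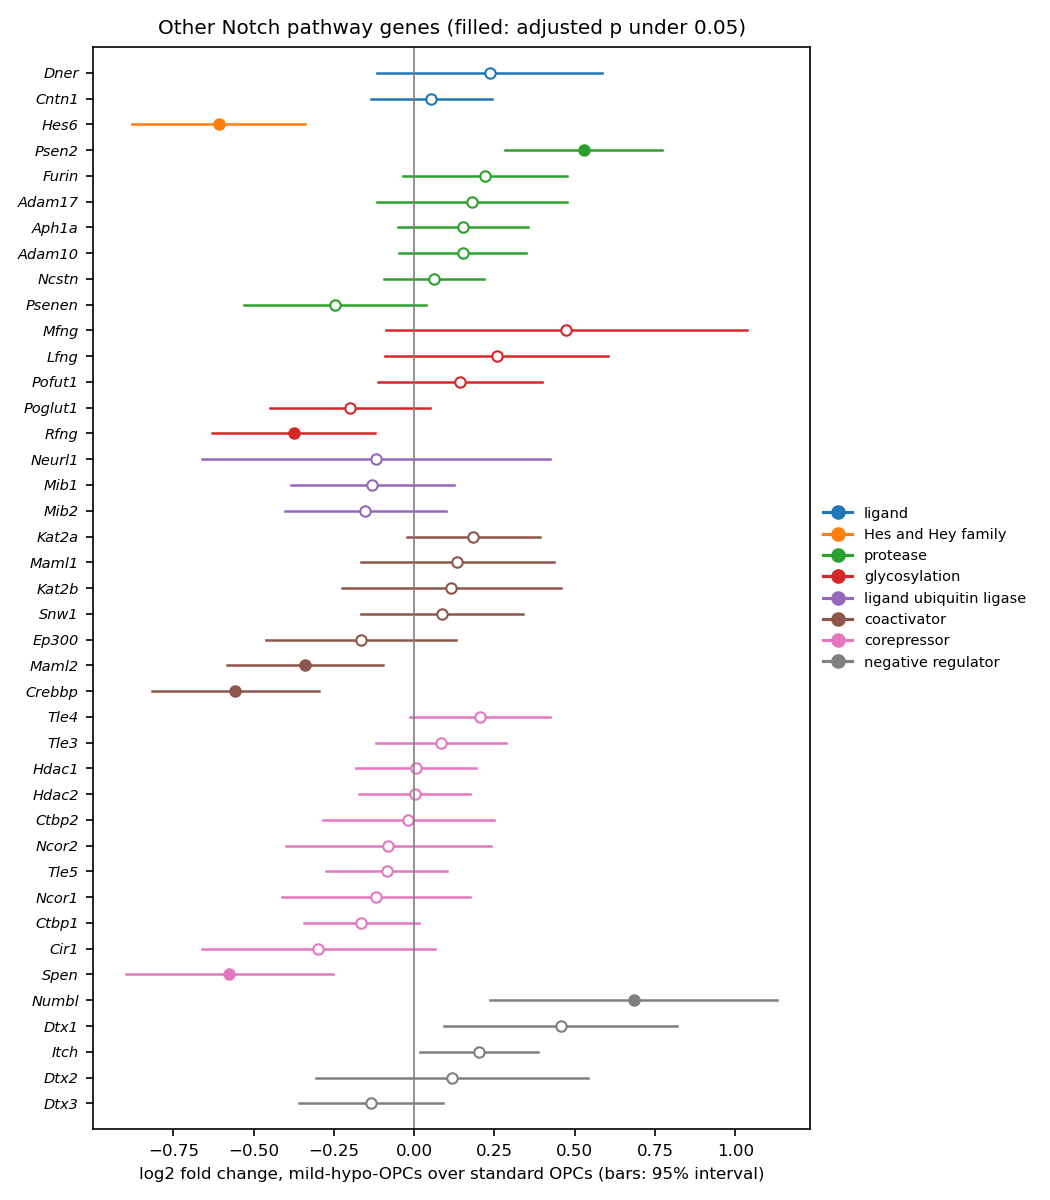
Log2 fold change with its 95% interval (horizontal axis) for tested genes of the wider pathway, coloured by role, with filled circles for an adjusted p under 0.05. Psen2 and Numbl are filled on the right of 0, and Hes6, Crebbp, Spen, Rfng and Maml2 on the left.

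Psen2 encodes a presenilin, the catalytic subunit of the gamma-secretase that releases the Notch intracellular domain. Its CPM was 26.05 to 31.71 in mild-hypo-OPCs (median 28.7) and 15.99 to 26.41 in standard OPCs (median 19.6). Only standard OPC replicate 2 reached the mild-hypo-OPC range, and Psen2 rose by 0.53 on the log2 scale (SE 0.117, edgeR adjusted p = 0.0031). The gamma-secretase genes Ncstn, Aph1a and Psenen were not called. Numbl, a Numb-family adaptor that antagonises Notch, had 11.56 to 16.04 CPM (median 13.9) against 3.999 to 12.98 CPM (median 8.58), and rose by 0.68 (SE 0.214, edgeR adjusted p = 0.0254). Its standard OPC libraries fell far apart, and the call was lost without standard OPC replicate 3 (0.54, adjusted p = 0.0744), replicate 4 (0.64, adjusted p = 0.0529) or replicate 5 (0.55, adjusted p = 0.0669), and after thinning all libraries to the smallest total (0.56, adjusted p = 0.14).

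Hes6 is a Hes family member that opposes Hes1 and promotes neuronal differentiation. Its CPM was 22.01 to 33.74 in mild-hypo-OPCs (median 28.8) and 30.03 to 51.32 in standard OPCs (median 46.0). No mild-hypo-OPC library reached the standard OPC median, and Hes6 fell by 0.61 on the log2 scale (SE 0.129, edgeR adjusted p = 0.00207). The call was lost after a trend of fold change on gene span was removed (-0.24, adjusted p = 0.194). Hes6 and Hey1 are both short genes, and the span trend at Hey1 was -0.32. With that trend removed, Hey1 stood at 0.13 (adjusted p = 0.532).

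The lower coactivators were Crebbp and Maml2 and the lower corepressor was Spen. Crebbp, an acetyltransferase used by many transcription factors besides Notch, had 59.92 to 88.77 CPM (median 68.7) against 73.98 to 130.1 CPM (median 105.9), and fell by 0.56 (SE 0.124, edgeR adjusted p = 0.00312). Spen, a large repressor that binds Rbpj when Notch is inactive, had 33.87 to 61.86 CPM (median 45.8) against 49.32 to 81.75 CPM (median 70.9), and fell by 0.58 (SE 0.154, edgeR adjusted p = 0.0106). Both calls were kept when any single library was left out. Maml2, a Mastermind-like coactivator, had 42.59 to 63.88 CPM (median 50.8) against 49.98 to 80.08 CPM (median 65.3), and fell by 0.34 (SE 0.117, edgeR adjusted p = 0.0399). Rfng, a Fringe glycosyltransferase that tunes which ligands Notch answers, had 23.47 to 30.05 CPM (median 29.2) against 28.53 to 49.98 CPM (median 35.6), and fell by 0.38 (SE 0.121, edgeR adjusted p = 0.0297). Both sat close to the threshold. The Maml2 call was lost in 9 of 12 fits that left out 1 library (any mild-hypo-OPC library but replicate 5, or any of replicates 2, 3, 4 and 6 of the standard OPCs, with values of -0.35 to -0.26). The Rfng call was lost in 7 of 12 (any mild-hypo-OPC library but replicate 6, or either of replicates 5 and 6 of the standard OPCs, with values of -0.36 to -0.27). Rfng is a short gene too, with a span of 3102 bases, and stood at -0.09 (adjusted p = 0.655) once the span trend was removed. In that fit the lower calls of Crebbp (-0.62, edgeR adjusted p = 0.00208), Spen (-0.64, adjusted p = 0.00648) and Maml2 (-0.36, adjusted p = 0.0322) were kept. The higher calls of Psen2 (0.505, edgeR adjusted p = 0.00534) and Numbl (0.68, adjusted p = 0.0288) were kept too. The part of gene span in these calls was not tested. With log2 total count as a covariate, none of the 7 calls was kept (2 genes higher and 7 lower at an unadjusted p under 0.05 in edgeR), and in replicates 1 to 3 only that of Crebbp was. Psen2 then stood at 0.60 (adjusted p = 0.467) and 0.42 (adjusted p = 0.154), and Hes6 at -0.25 (adjusted p = 0.907) and -0.58 (adjusted p = 0.0837). Under the covariate, the fold changes of Crebbp (-1.01, adjusted p = 0.0511), Spen (-1.10, adjusted p = 0.116), Maml2 (-0.58, adjusted p = 0.494) and Numbl (0.80, adjusted p = 0.666) lay farther from 0 than without it. That of Rfng lay closer to 0 (-0.016, edgeR adjusted p = 0.998). In replicates 1 to 3, Spen stood at -0.61 (adjusted p = 0.0635) and Maml2 at -0.38 (adjusted p = 0.115), so their values were no closer to 0 than with all libraries. In the same replicates, Rfng (-0.30, edgeR adjusted p = 0.299) and Numbl (0.53, edgeR adjusted p = 0.296) lay closer to 0. In replicates 4 to 6, Spen (-0.49, adjusted p = 0.0587), Rfng (-0.45, adjusted p = 0.0682) and Maml2 (-0.25, adjusted p = 0.303) did not pass. With library size only, which moved all genes upward, Psen2 stood at 0.96 (adjusted p = 6.21e-06) and Numbl at 1.11 (adjusted p = 0.000164), and the 5 lower genes were not called (Hes6 -0.18, Crebbp -0.12, Spen -0.14, Maml2 0.10 and Rfng 0.06). Relative to the median of all genes under that scaling, Psen2 stood at 0.53 and Numbl at 0.68, Hes6 at -0.61, Crebbp at -0.55, Spen at -0.57, Maml2 at -0.33 and Rfng at -0.37, close to their values with TMM factors.

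**Figure D5:**
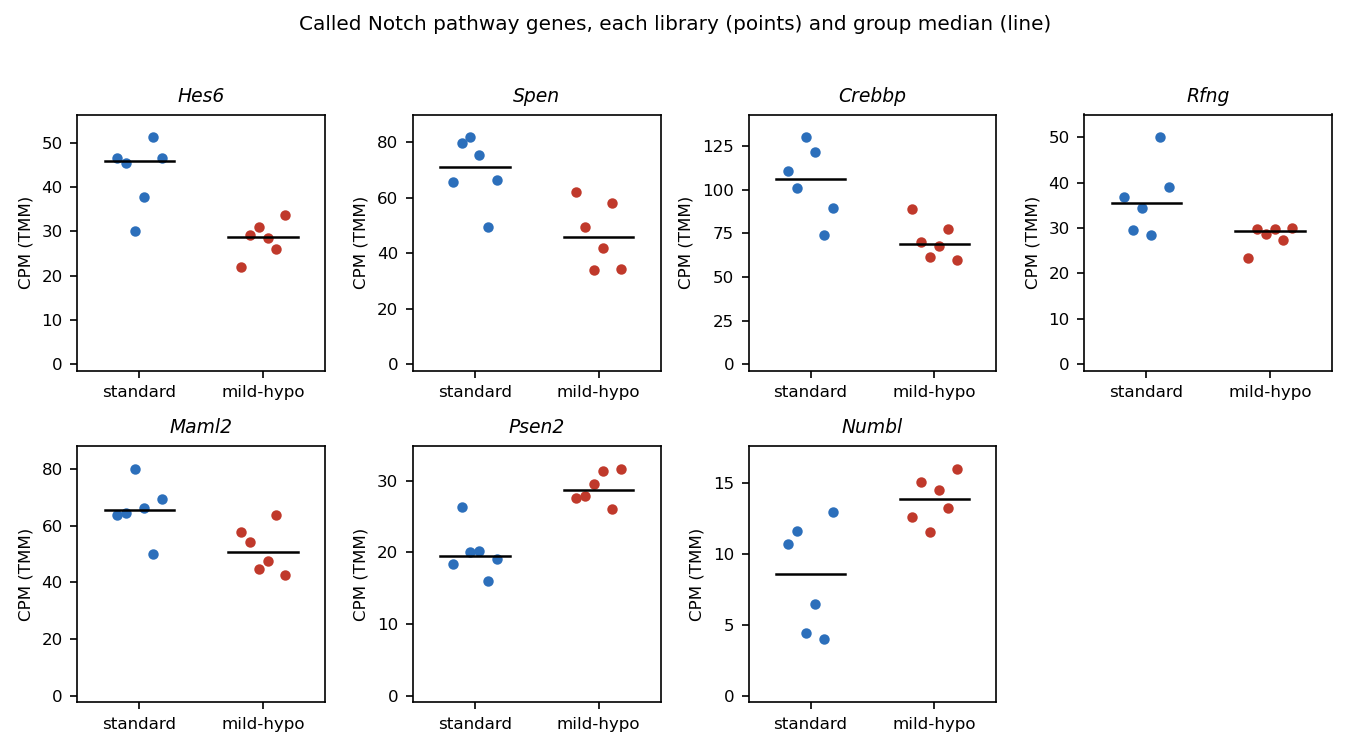
CPM on the TMM scale (vertical axis, linear and including 0) of the 7 called genes of the wider pathway in each library, standard OPCs in blue and mild-hypo-OPCs in red, with a line at the group median. For each gene, at least 1 library of one group lies within the range of the other.

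The genes with the next lowest p-values did not pass the adjusted threshold. They were Dtx1, a Deltex-family regulator of Notch trafficking, at 0.46 (SE 0.174, edgeR adjusted p = 0.0624, tested only through the group where it was higher) and Itch, a ubiquitin ligase, at 0.20 (SE 0.0881, edgeR adjusted p = 0.105). The corepressors Tle4 and Ctbp1 stood at 0.20 and -0.16, and the acetyltransferase gene Kat2a at 0.18 (edgeR adjusted p = 0.167, 0.176 and 0.188). Most of the remaining Hes and Hey family genes were among the 19 that were not tested. Hes2 had no read in any library, Hes3 had 4 and 0 reads in the pooled mild-hypo-OPC and standard OPC libraries, Hes7 had 5 and 1, Heyl had 21 and 6, and Hey2 had 59 and 13. The endothelial ligand Dll4 had 1 and 1. Nrarp, a Notch-induced feedback inhibitor, had 277 and 72 reads, the most of the untested genes, and stayed just under the filter at a highest raw CPM of 9.49. These pooled reads are not scaled for depth, and every mild-hypo-OPC library was deeper than every standard OPC library. On the CPM scale, medians in mild-hypo-OPCs and standard OPCs were 7.81 and 7.11 for Nrarp and 0.541 and 0.573 for Heyl. For Hey2 they were 1.45 and 0.573, and the groups overlapped for each of these genes.

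The cell type named in the labels was checked against marker genes. All 7 OPC markers were present, with a summed level of 3939 CPM (median, 3726 to 4326) in mild-hypo-OPCs and 3696 CPM (3083 to 3827) in standard OPCs. Of these, only Gpr17, which marks committed precursors, was called, with a rise of 0.45 (edgeR adjusted p = 0.000842) and medians of 1314 and 986.8 CPM. The other OPC markers were not called and ranged from -0.14 for Ptprz1 to 0.23 for Sox10. Astrocyte markers summed to 863.8 CPM (822.6 to 955.9) and 812 CPM (758 to 859.6), with Gfap the most abundant. Of these, 2 of 7 tested, Aqp4 and Slc1a3, were higher, beside 7% of all tested genes. Astrocytes also express Notch receptors and Hes genes. Markers of neural progenitors and immature neurons, cells that express Dll1, Dll3 and Hes6, summed to 317.1 CPM (307.9 to 344.5) in mild-hypo-OPCs and 263.3 CPM (231.9 to 280.8) in standard OPCs without overlap. Among these, Dcx was the most abundant, and 2 of 6 tested, Tubb3 and Dlx1, were higher, beside 7% of all tested genes. Of the 2, Dlx1 passed the filter on low values only through mild-hypo-OPC libraries. Microglial markers summed to 44.82 CPM (38.07 to 53.47) and 38.4 CPM (20.25 to 41.72), with Csf1r the most abundant. Of 3 tested, Csf1r was higher, beside 7% of all tested genes, and Tyrobp lower, beside 17%. Tyrobp passed the filter on low values only through standard OPC libraries. The counts of called markers are too small to be read against the shares of all tested genes. Endothelial markers (5 of 6 in the table) summed to 0.481 and 0.715 CPM at the median, with Kdr the most abundant and Tek and Cdh5 at 0 in all 12 libraries. The part of other cell types in the values of the Notch genes was not tested.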

How the data were processed

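Bulk RNA-seq was performed on 6 mild-hypo-OPC and 6 standard OPC libraries made with a strand-specific kit. Per the labels and the study's methods, the authors trimmed reads with Trimmomatic 0.36, checked them with FastQC 0.11.9, aligned them to mRatBN7.2 with STAR 2.7.9a and quantified genes with RSEM 1.3.3. The deposited values are whole-number counts per gene, without normalization. RSEM gives estimates that need not be whole, and how they were made whole is not given in the sources used here. Library groups came from the labels, and 0 columns were left unused. Of 30562 genes, 13171 were at 0 in every library. No library repeated another: over the 15 pairs within a group, the chi-square statistic divided by its degrees of freedom ran from 3.97 to 27.2 for mild-hypo-OPCs and from 4.14 to 22.3 for standard OPCs.

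Genes with CPM above 10 in at least 1 library were tested in R 4.3.3 with edgeR 4.0.16 (TMM factors, glmQLFit and glmQLFTest, condition as the only term, Benjamini-Hochberg threshold 0.05). SEs were derived from the F statistic of that test. Log2 CPM for the profile comparison used a prior count of 2. Named genes were the 10 members, each called gene of the wider pathway list, its 5 other tested genes with the lowest p-values, the 3 genes most like the member with the lowest p, and cell type markers. From the wider list, the gamma-secretase genes Ncstn, Aph1a and Psenen and some untested genes were also named. 1 tested gene of the wider list is counted but not reported here by name or in the figures. The members, lists and tests were chosen with earlier results of these data known. limma 3.58.1 (voom), DESeq2 1.42.0, other scalings and filters, the replicate number as a block, either set of 3 replicate numbers, leaving out each library, thinning to the smallest total, log2 total count as a covariate and removal of a loess trend of fold change on gene span (span known for 95.59% of tested genes) were the alternatives. A self-test on simulated data was run, and its values are not given here. Intervals have a 95% level, and those on pooled reads and the floor of 3 reads cover counting error only.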

Additional observations from a re-analysis of the deposited data

Results flagged for a closer look

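Among 44 groups of 6 libraries (22 genes, both conditions), 3 held a library whose gap to its nearest neighbour, divided by the range of the group, exceeded Dixon's 95% critical value. Chance alone flags about 1 in 20 groups. Rbpj in standard OPC replicate 5 was lowest, at 94.64 CPM, with the other 5 libraries at 115.0 to 124.1 CPM. Hes5 in mild-hypo-OPC replicate 6 was highest, at 1.291 CPM (7 reads), with the others at 0.178 to 0.522 CPM. Hey1 in mild-hypo-OPC replicate 6 was highest, at 19.36 CPM, with the others at 14.50 to 15.98 CPM. Without any single library, the Rbpj log2 fold change stayed between 0.11 and 0.21 (edgeR adjusted p 0.0691 to 0.338) and that of Hey1 between -0.26 and -0.13 (edgeR adjusted p 0.17 to 0.527).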

How the results depend on the processing

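The count of 0 members called lower held under all 24 alternatives, and the count of 0 called higher changed only with upper-quartile scaling (1, Rbpj) and library size only (2, Jag1 and Rbpj). Genes called higher numbered 1136 with upper-quartile scaling, 5515 with library size only, 0 with log2 total count as a covariate (217 at an unadjusted p under 0.05 in edgeR), 53 in replicates 1 to 3 and 397 after thinning. Genes called lower numbered 405 with library size only, 43 with the depth covariate and 343 in replicates 1 to 3. Other pathway genes called higher were 4 with upper-quartile scaling, 31 with library size only, 0 with the depth covariate (2 at an unadjusted p), 4 with the span trend removed, 0 in replicates 1 to 3 (2 at an unadjusted p) and 1 after thinning, and 1 to 4 without any 1 library. Those called lower were 3 with upper-quartile scaling, 0 with library size only (0 at an unadjusted p), 3 without the filter, 0 with the depth covariate (7 at an unadjusted p), 3 with the span trend removed, 1 in replicates 1 to 3 and 2 in replicates 4 to 6, and 3 to 5 without any 1 library. Signs turned for Notch1 (0.21), Notch2 (0.36), Dll3 (0.33), Hey1 (0.23), Rfng (0.057), Maml2 (0.10) and Ctbp1 (0.28) with library size only. They turned with the depth covariate for Dll1 (-0.39), Dll3 (0.081), Rbpj (-0.065), Hey1 (0.17) and Ctbp1 (0.17), with the span trend removed for Dll3 (0.022) and Hey1 (0.13), for Dll1 in replicates 1 to 3 (-0.15) and for Dll3 in replicates 4 to 6 (0.17). Without any 1 library, Notch2 ranged from -0.20 to 0.021, Dll1 from -0.051 to 0.27 and Dll3 from -0.19 to 0.035. The Notch1 to Notch3 ratio ranged from -0.90 to -0.67 and passed only without mild-hypo-OPC replicate 4 (-0.90, adjusted exact permutation p = 0.00866). Jag1 to Dll1 turned to 0.035 with 1 added to each count, 0.18 in replicates 1 to 3 and 0.17 after thinning (-0.15 to 0.25 without any 1 library). Hes5 to Notch1 turned to 0.33 in replicates 1 to 3 and 0.26 after thinning (-0.43 to 0.20 without any 1 library). It stood at -0.50 with 1 added to each count and at -0.52 in replicates 4 to 6. The cause was not tested. Hes1, Hes5 and Notch3 had at most 4 reads in any standard OPC library, which limits what can be said of them.

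With the replicate number as a block, 572 genes were called higher and 1471 lower, 0 members in either direction, and 2 and 4 other pathway genes, with Maml2 no longer called (-0.34, edgeR adjusted p = 0.0616). Libraries with the same number deviated together with correlations from -0.276 to 0.296, and not every library correlated best with its own number, so the numbers were not taken to pair the libraries.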
